A study of Mus musculus with 6 samples.

Results

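Beta-catenin, the central effector of canonical Wnt signalling, was followed here through 10 genes of its pathway inside the cell. The genes were taken by name for their place in the pathway from 18614 genes measured in the mouse subventricular zone (SVZ). They are the Dishevelled genes Dvl1 and Dvl3, the destruction complex genes Apc, Axin2 and Gsk3b, the beta-catenin gene Ctnnb1 itself, and the DNA-binding partners Lef1, Tcf7, Tcf7l1 and Tcf7l2. The SVZ, a neurogenic zone of the adult brain beside the lateral ventricle, was profiled by bulk RNA sequencing in 3 wild-type libraries (WT, Zhx2+/+) and 3 libraries whose titles give a Zhx2 knockout (KO, Zhx2Δ/Δ in the design text). The genotype tag names ZHX2 for KO 1 but ZHX3 for KO 2 and ZHX4 for KO 3. The labels name no age or sex and do not say whether the libraries came from separate animals. A p-value here therefore speaks only of how far these 6 libraries vary, and that variation may be technical.

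In the absence of a Wnt ligand, a complex built on the scaffolds Axin and Apc holds beta-catenin so that the kinase Gsk3b can mark it for destruction. When Wnt binds its receptors, Dishevelled proteins recruit Axin to the membrane, beta-catenin accumulates, enters the nucleus and joins a factor of the Tcf/Lef family on target genes. Axin2 and Lef1 are targets of the pathway as well as parts of it, and Axin2 closes a negative feedback loop; in the SVZ and the hippocampus the pathway is known for its role in the maintenance of neural progenitors.

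Library totals were between 17037152 and 17685906 estimated counts. Zhx2 itself was higher in every KO-labelled library, with 959 to 1139 counts against 659 to 735 in WT. Whether the gene was disrupted was not tested, and KO below is the label only. Choroid plexus markers stood apart. Their summed level was between 5401 and 23090 scaled CPM (counts relative to a scaled library total) in WT. In KO-labelled libraries it was between 328 and 527 CPM, and all 15 markers had lower group means there. Ependymal markers, 12 of 12 lower, summed to between 209.8 and 309 CPM in WT and between 109 and 151 CPM in KO-labelled libraries. A bulk library does not tell fewer cells of a type from less RNA per cell.

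All 10 genes were detected in every library and passed the filter on low counts. None passed the threshold, an adjusted p of 0.05 over the 15126 genes tested, in edgeR, DESeq2 or limma-voom. For the whole table, the percentage called was 0 in edgeR and 2.06 in DESeq2. At an unadjusted p under 0.05 in edgeR, 2 of the 10 stood out, Lef1 and Dvl1, beside 9.07% of all genes. The same 2 were the only ones of the 10 whose groups did not overlap, beside 16.7% of all genes. The log2 fold change, KO-labelled minus WT, was negative for 8 of the 10 and positive for 2, with a median of -0.14, against a median of 0.02 over all genes, of which 46.6% were negative. Adjusted p values in edgeR were between 0.49 and 0.986.

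Scaled to transcript length, the genes spanned a wide range of levels in the tissue. The order below is that of the deposited FPKM (fragments relative to transcript length and library total) summed per gene and averaged over the 6 libraries. Ctnnb1 led with a mean of 129 FPKM, and its lowest library, at 120.2 FPKM, lay above every library of every other member. Gsk3b followed with 32.1 FPKM, then Dvl1 with 27.0, Apc with 19.7 and Dvl3 with 16.3 FPKM. The ranges of neighbours among these 4 overlapped, so neighbours could not be ranked. Every library of Gsk3b and of Dvl1 did lie above every library of Dvl3. Axin2, with a mean of 8.76 FPKM, lay wholly below Dvl3. Its range overlapped that of Tcf7, whose mean was 4.46 FPKM, and the 4 Tcf/Lef genes could not be ranked either, with Tcf7l2 at 4.39, Tcf7l1 at 3.94 and Lef1 at 2.82 FPKM. Mean levels were thus lowest for the DNA-binding partners and highest for beta-catenin itself.

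**Figure D1:**
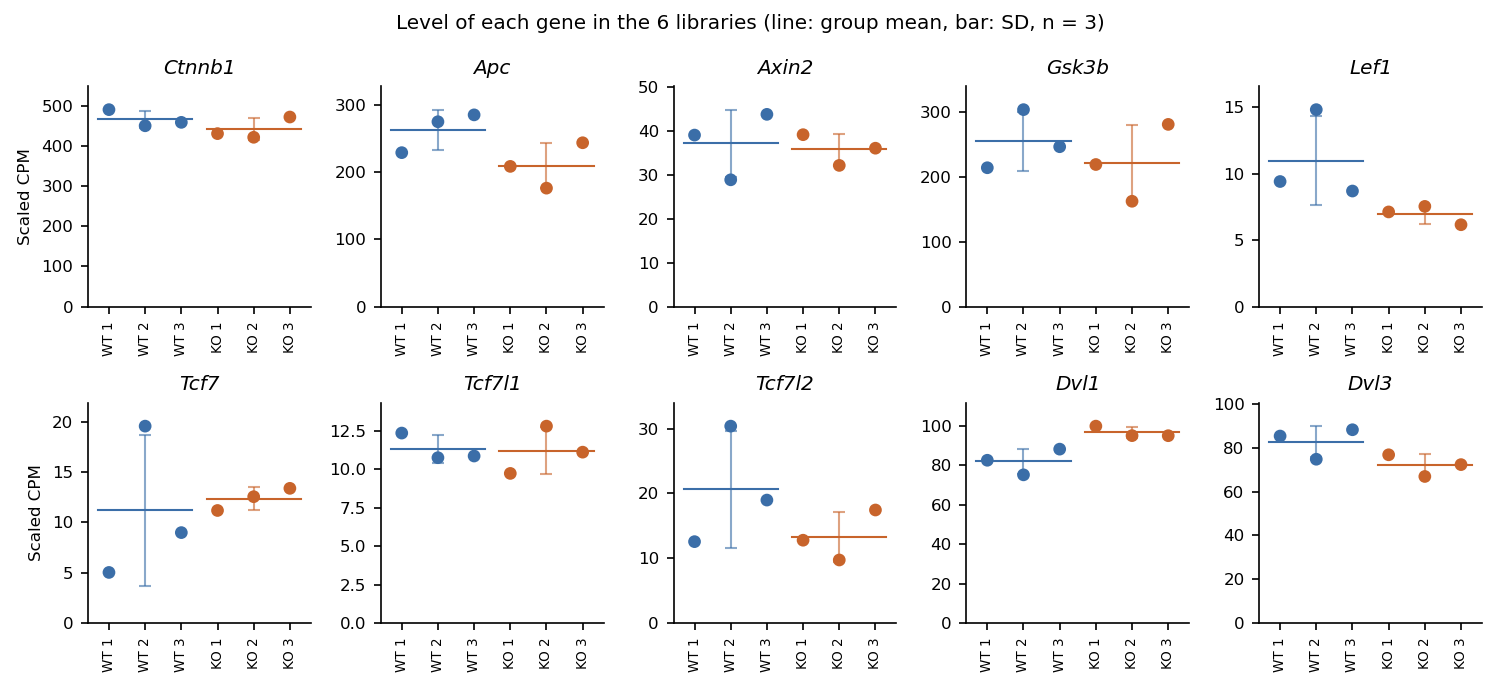
Scaled CPM (y axis, from 0) of each of the 10 genes in the 6 libraries (x axis), WT in blue and KO-labelled in orange, with the group mean as a line and the SD (n = 3) as a bar. Only the points of Lef1 and Dvl1 do not overlap between groups, and Tcf7 and Tcf7l2 spread most, with WT 2 highest in both.

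Dishevelled proteins pass the signal from the Frizzled receptors to the destruction complex. Dvl1 (NCBI gene 13542, chr4:155847402-155859303 in mm10) was at 82.6, 75.2 and 88.2 CPM in WT 1 to 3 and at 99.9, 95.1 and 95.1 CPM in KO 1 to 3. Every KO-labelled library lay above every WT library, and the KO-labelled libraries lay close together. The means were 82.0 ± 6.54 and 96.7 ± 2.79 CPM (SD, n = 3). In edgeR the difference was 0.24 on the log2 scale (SE 0.10), which missed the threshold (adjusted p = 0.542; two-sided exact permutation p = 0.1, the lowest possible with 3 against 3). The gene overlaps Tas1r3 in the annotation, and no source used here says whether the counting used strand. Dvl3 (gene 13544, chr16:20516949-20534013) went the other way, at 85.3, 74.7 and 88.2 CPM in WT and 76.8, 66.9 and 72.3 CPM in KO-labelled libraries. Its groups overlapped through WT 2 and KO 1. The log2 fold change was -0.20 (SE 0.11; edgeR adjusted p = 0.632).

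Because the pair stood in opposite directions, the ratio of Dvl1 CPM to Dvl3 CPM was taken within each library, a quantity chosen after the values were seen and free of library scaling. Its values were 0.968, 1.006 and 1.001 across WT 1 to 3 against 1.30, 1.42 and 1.315 across KO 1 to 3. The WT libraries were nearly equal and all KO-labelled libraries lay above them. The means were 0.992 ± 0.0207 and 1.35 ± 0.0659 (SD, n = 3), with an exact permutation p of 0.1. Since the ratio was chosen for the directions already seen, that p adds no support. The implied transcript length is 3310 nt for Dvl1 and 4752 nt for Dvl3, and long transcripts were on the whole lower in KO-labelled libraries, as described below for Apc. With length offsets the log2 fold change was 0.23 for Dvl1 and -0.14 for Dvl3, and the ratio itself was not recomputed with them. The remaining family gene, Dvl2, named after its values were seen, was at 20.4, 22.9 and 19.7 CPM in WT and 22.5, 24.6 and 23.6 CPM in KO-labelled libraries, with overlapping groups.

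**Figure D2:**
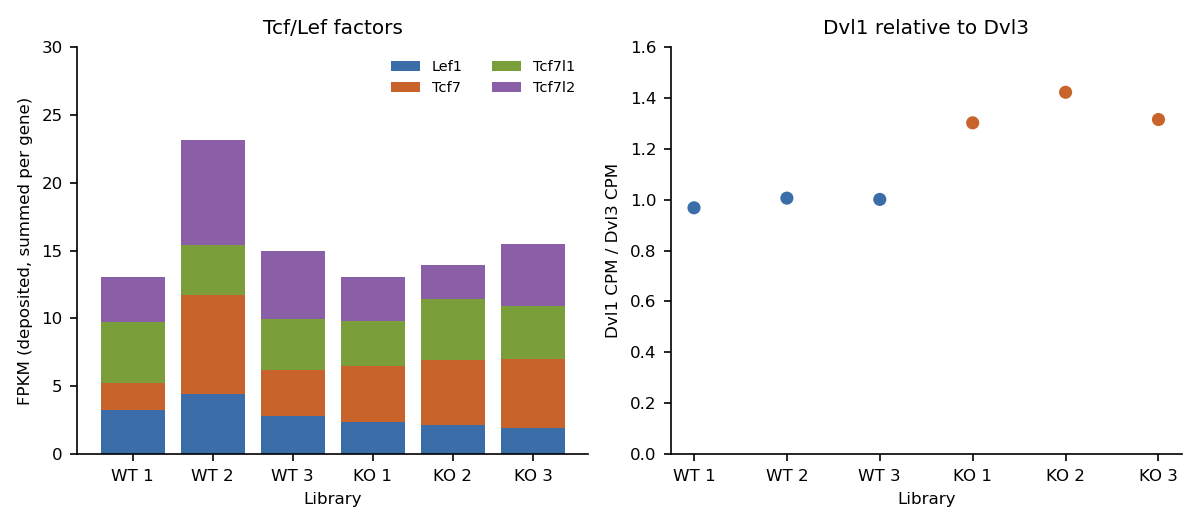
Left, deposited FPKM of the 4 Tcf/Lef genes stacked per library (y axis from 0); right, Dvl1 CPM divided by Dvl3 CPM per library, WT in blue and KO-labelled in orange. The summed Tcf/Lef level is highest in WT 2 at 23.1 FPKM, and the Dvl1 to Dvl3 ratio is near 1 in WT and between 1.30 and 1.42 in KO-labelled libraries.

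In the destruction complex, Apc, the large scaffold whose loss stabilises beta-catenin, was at 229, 274.5 and 285 CPM in WT 1 to 3 and at 208, 176 and 243 CPM in KO 1 to 3. KO 2 was lowest, and the groups overlapped because KO 3 exceeded WT 1. The means were 263 ± 29.9 and 209 ± 33.7 CPM (SD, n = 3), with a log2 fold change of -0.33 (SE 0.155, edgeR adjusted p = 0.592). With single libraries left out, the log2 fold change ran from -0.45, without KO 3, to -0.22, without KO 2. Apc is NCBI gene 11789 on chromosome 18. Gsk3b, the kinase of the complex (gene 56637, chr16:38089001-38246084), was at 215, 304 and 247 CPM in WT and 219.6, 163 and 282 CPM in KO-labelled libraries. Here too KO 2 was lowest, while WT 2 and KO 3 were highest, so the groups overlapped widely. The log2 fold change was -0.21 (SE 0.23, edgeR adjusted p = 0.811), and it was -0.03 without KO 2, -0.07 without WT 2 and -0.42 without KO 3.

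Apc and Gsk3b have the longest transcripts of the 10, at 11938 and 7419 nt as implied by the deposited counts and FPKM. Over all tested genes the difference between groups moved with that length. The median log2 fold change was 0.10 for 4225 genes under 2000 nt, -0.05 for 2816 genes between 4000 and 6000 nt, and -0.17 for 292 genes over 10000 nt. The longest genes were low in KO 2 and KO 1, with median centred log2 CPM of -0.22 and -0.14, and high in WT 2 and WT 3 (0.18 and 0.15), while KO 3 was at 0.10 and WT 1 at -0.03. Apc followed the same library order at its low end, with KO 2 and KO 1 below the other 4. When per-library length offsets, an alternative added after the data were seen, were put into edgeR, the log2 fold change of Apc was -0.15 (SE 0.09, adjusted p = 0.721) and that of Gsk3b was -0.09. The offsets left Lef1 at -0.67 and Tcf7l2 at -0.61. Why the length trend differed between libraries was not tested.

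**Figure D3:**
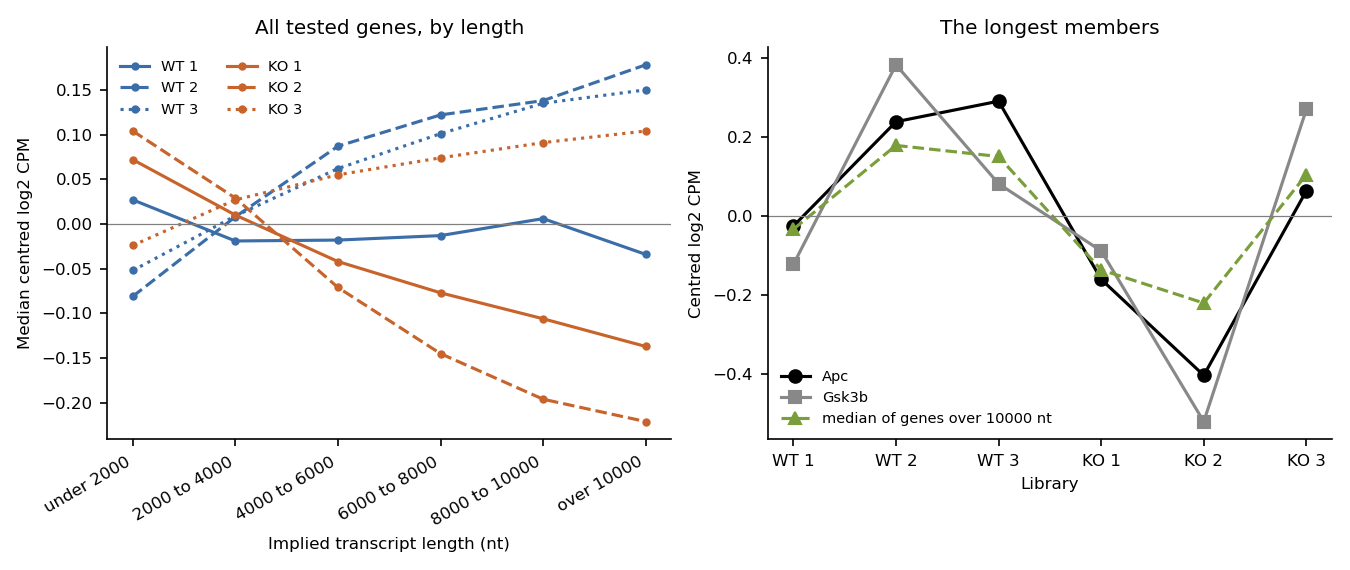
Left, median centred log2 CPM of all tested genes (y axis) by implied transcript length in nucleotides (x axis), 1 line per library; right, centred log2 CPM of Apc, Gsk3b and the median of genes over 10000 nt in the 6 libraries. Long genes are lowest in KO 2 and highest in WT 2, and Apc and Gsk3b are both lowest in KO 2.

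**Figure D4:**
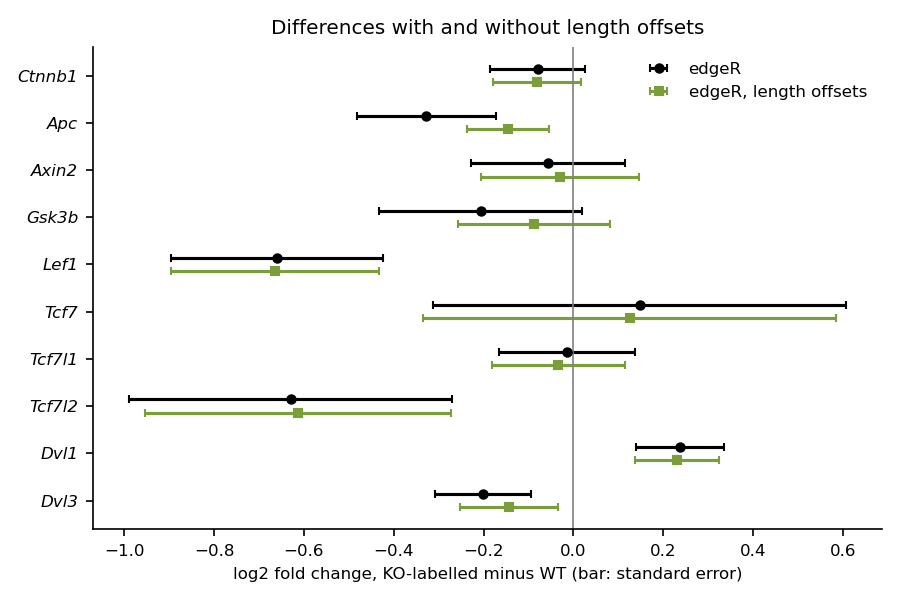
Log2 fold change, KO-labelled minus WT (x axis), of each gene with its standard error as a bar, from edgeR without (black circles) and with (green squares) length offsets. Apc moves from -0.33 to -0.15 and Gsk3b from -0.21 to -0.09, while Lef1 and Tcf7l2 stay below -0.6.

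Axin2, the feedback scaffold and a widely used readout of canonical Wnt activity (gene 12006, chr11:108917828-108950783), was at 39.0, 28.8 and 43.7 CPM in WT 1 to 3 and at 39.1, 32.1 and 36.0 CPM in KO 1 to 3. The KO-labelled libraries all lay inside the range of the WT libraries. The means were 37.15 ± 7.60 and 35.7 ± 3.497 CPM (SD, n = 3), with a log2 fold change of -0.06 (SE 0.17, edgeR adjusted p = 0.94; exact permutation p = 0.9). The sign turned with single libraries left out, from -0.22 to 0.075. Among the 241 listed genes that are not members, the one whose level over the 6 libraries was most like that of Axin2 was Gja1, the astrocyte gap junction gene, with a root mean square difference of 0.09 in centred log2 CPM against a median of 0.36 over the 241; it was named after its values were seen. Its levels were 231.5, 174 and 254 CPM in WT and 247, 204 and 251 CPM in KO-labelled libraries.

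The split of Axin2 counts over its 5 deposited transcripts was not smooth. For 4 of them the estimated counts were whole multiples of a fixed step, within 0.01 counts. One took 137, 68.7 and 275 counts across WT 1 to 3 against 0, 172 and 34.35 across KO 1 to 3, which are 4, 2, 8, 0, 5 and 1 steps of 34.35 counts. Such transcripts made up 0.364% of the 45303 searched. The 4 together held between 10.4% and 55.3% of the gene's counts, while the gene sums were whole numbers within 0.05 counts, so gene sums are used here and the split is not read as isoform levels.

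Lef1 and Axin2, the members best known as targets of the pathway, are shown by the 250 bases upstream of an annotated start site, from RefSeq on GRCm38.p6, because Tcf/Lef factors bind the core CTTTG and the longer site CTTTGAT. Capitals mark the core on either strand. The Axin2 window is chr11:108920099-108920348 and the Lef1 window chr3:131110047-131110296, both on the plus strand.
Axin2: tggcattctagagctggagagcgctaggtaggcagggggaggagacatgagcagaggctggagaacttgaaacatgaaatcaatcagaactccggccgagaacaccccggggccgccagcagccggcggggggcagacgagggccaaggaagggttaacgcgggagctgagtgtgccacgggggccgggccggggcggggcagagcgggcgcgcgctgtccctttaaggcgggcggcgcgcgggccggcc
Lef1: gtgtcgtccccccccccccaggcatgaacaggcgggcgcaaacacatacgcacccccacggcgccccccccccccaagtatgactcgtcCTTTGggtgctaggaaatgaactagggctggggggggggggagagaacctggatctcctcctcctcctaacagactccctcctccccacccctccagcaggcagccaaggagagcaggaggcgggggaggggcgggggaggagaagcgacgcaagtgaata
The Lef1 stretch holds 1 core, 161 bases before the start site, and the Axin2 stretch holds none. Over the 15 promoter windows of 300 bases found for 9 of the 10 genes (250 bases before and 50 after a start site; none was given for Apc), CTTTGAT or its reverse complement ATCAAAG occurred in 0, and in 3.73% of 32851 windows of the same length. The core CTTTG or CAAAG, which the longer site contains, occurred in 8 of the 15, from Lef1, Tcf7l1, Gsk3b and Tcf7l2, and in 53.9% of all windows. The first Lef1 window has 67.3% G and C and the Axin2 window 70.0%, against a median of 52.7% over all windows. These matches describe the letters only; no binding was measured.

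Ctnnb1 (gene 12387, chr9:120933400-120960507), which encodes the effector itself and also a part of adherens junctions, was the steadiest of the abundant members. It was at 491, 451 and 459 CPM in WT 1 to 3 and at 431, 422 and 472.5 CPM in KO 1 to 3. KO 3 lay above WT 2 and WT 3, so the groups overlapped. The means were 467 ± 21.2 and 442 ± 26.9 CPM (SD, n = 3), with a log2 fold change of -0.08 (SE 0.105, edgeR adjusted p = 0.848; exact permutation p = 0.3). RNA levels do not report the amount or the location of the protein, through which the pathway acts.

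Among the Tcf/Lef factors, Lef1, an activator and a target of the pathway (gene 16842, chr3:131110297-131224357), was the 1 of the 4 whose groups did not overlap. It held 174, 247 and 150 counts across WT 1 to 3 against 121, 131 and 105 across KO 1 to 3, or 9.42, 14.8 and 8.70 CPM against 7.13, 7.545 and 6.17 CPM. All KO-labelled libraries lay below all WT libraries, with WT 2 well above the other WT libraries. The means were 11.0 ± 3.35 and 6.95 ± 0.707 CPM (SD, n = 3). Its log2 fold change was -0.66 (SE 0.24), which did not pass in edgeR (adjusted p = 0.49; DESeq2 adjusted p = 0.379; exact permutation p = 0.1, the smallest possible). Without WT 2 it was -0.395.

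Tcf7l2, known in thalamic neurons and in the oligodendrocyte lineage (gene 21416, chr19:55741797-55933659), was at 12.6, 30.4 and 19.0 CPM in WT 1 to 3 and at 12.8, 9.73 and 17.4 CPM in KO 1 to 3. WT 2 was highest and KO 2 lowest, and WT 1 lay among the KO-labelled libraries. The log2 fold change was -0.63 (SE 0.36, edgeR adjusted p = 0.654), and it was -0.89 without WT 1 and -0.25 without WT 2. Tcf7l1, the family member best known as a repressor (gene 21415, chr6:72626371-72789045), was at 12.3, 10.7 and 10.85 CPM in WT and 9.72, 12.8 and 11.1 CPM in KO-labelled libraries. It was the evenest of the 4 over the libraries, with a log2 fold change of -0.01 (SE 0.15, edgeR adjusted p = 0.986).

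Tcf7, best known from T cells (gene 21414, chr11:52246527-52283383, overlapping Skp1), had 93, 326 and 155 counts across WT 1 to 3 against 190, 218 and 228 across KO 1 to 3. That is 5.03, 19.6 and 8.99 CPM against 11.2, 12.6 and 13.4 CPM. The WT libraries spanned both the lowest and the highest value, with a coefficient of variation of 67.1% against 8.95% in KO-labelled libraries. Its log2 fold change was 0.15 (SE 0.46, edgeR adjusted p = 0.945); it was -0.205 without WT 1 and 0.81 without WT 2. Of the T cell list, the following genes are named after their values were seen. The T cell receptor complex genes Cd3e and Cd3d were at or near the floor, with 0 to 3 and 1 to 6 counts in a library. Cd4 was at 1.41, 99.6 and 16.65 CPM in WT and 42.5, 61.1 and 47.4 CPM in KO-labelled libraries, lowest in WT 1 and highest in WT 2 like Tcf7. Cd8a, at a low level, was highest in WT 2, with 38 counts. Its lowest value, 22 counts in WT 1, lay within counting error of the 23 counts in KO 2. Cd8a was at 1.19, 2.28 and 1.51 CPM in WT and 1.59, 1.32 and 1.47 CPM in KO-labelled libraries. The T cell kinase gene Lck had its lowest value in WT 2, with 1.52, 1.20 and 1.62 CPM in WT and 1.41, 2.02 and 1.70 CPM in KO-labelled libraries. Il7r and Cd3g, at low counts, had 13 and 4 counts in WT 1 against 7 and 0 in WT 2. Cd2 and Ccr7 went the other way, with 2 and 2 counts in WT 1 against 7 and 4 in WT 2.

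Summed per length, the 4 Tcf/Lef genes reached 13.1, 23.1 and 14.96 FPKM in WT 1 to 3 and 13.0, 13.9 and 15.5 FPKM in KO 1 to 3. WT 2 stood above the other 5, which lay close together. Lef1 held 25.1%, 19.1% and 18.9% of that sum across WT against 18.1%, 15.2% and 12.3% across KO-labelled libraries. Its share was thus lower in every KO-labelled library than in any WT library, whereas the shares of Tcf7l1 and Tcf7l2 overlapped between groups. Tcf7 held 15.1%, 31.7% and 22.5% across WT against 31.7%, 34.5% and 33.2% across KO-labelled libraries, so WT 2 met KO 1. These shares were formed after the values were seen, and no test was made on them.

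The 3 members with the widest range over the libraries, Tcf7, Tcf7l2 and Lef1, were compared with the 241 listed genes by the root mean square difference of centred log2 CPM. Nearest to Tcf7 was Ccdc88c, which encodes a Dishevelled-binding protein (0.17), against a median of 0.69. Next were Rrm2, a nucleotide synthesis gene on the progenitor list (0.20), and Cacng4, a receptor subunit gene on the oligodendrocyte precursor list (0.24). Ccdc88c was at 31.5, 142 and 52.7 CPM in WT and 54.6, 80.7 and 78.1 CPM in KO-labelled libraries. It shared with Tcf7 the lowest value in WT 1 and the highest in WT 2.

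Striatal projection neuron markers moved in the same way. Their summed level was 607 CPM in WT 1, the lowest, 8727 CPM in WT 2, the highest, and between 2539 and 5083 CPM in the other 4 libraries, and 11 of 11 had a positive log2 fold change. Averaged over the list, log2 CPM was 5.06, 9.09 and 7.45 across WT 1 to 3 against 8.015, 8.29 and 8.38 across KO 1 to 3, the same order of the 6 libraries as for Tcf7. Activated stem cell and progenitor markers, the list that holds Rrm2, were also lowest in WT 1 and highest in WT 2. They summed to 66.1, 114 and 79.7 CPM across WT 1 to 3 against 88.7, 88.1 and 76.6 CPM across KO 1 to 3. The part of either list in the level of Tcf7 was not tested.

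Nearest to Tcf7l2 were Rora, a thalamic marker that encodes a nuclear receptor (0.205), the corepressor gene Tle4 (0.28) and the tankyrase gene Tnks, whose product acts on Axin (0.31), against a median of 0.64. Rora was at 40.1, 70.3 and 52.9 CPM in WT and 39.2, 33.8 and 42.6 CPM in KO-labelled libraries, highest in WT 2 and lowest in KO 2 like Tcf7l2. Thalamic markers as a list had 8 of 10 members with a negative log2 fold change, with a median of -0.56. Their mean log2 CPM was 3.86, 4.09 and 4.12 across WT against 3.34, 3.17 and 3.67 across KO-labelled libraries, so the groups did not overlap. Slc17a6 and Lhx9 were the 2 of 10 markers whose own groups did not overlap, beside 16.7% of all genes. Without them, a split made after the values were seen, the groups overlapped. The mean of the other 8 was 3.78, 4.245 and 4.22 across WT against 3.803, 3.76 and 4.03 across KO-labelled libraries. Because the 2 were left out for their own separation, this split cannot show where that of the list came from. All of the 8 but Gbx2 and Vamp1 had a negative log2 fold change. Within WT the mean log2 CPM of the 10 was lowest in WT 1, as Tcf7l2 was. The summed level was instead lowest within WT in WT 2, at 521, 369 and 421 CPM in WT and 277, 397 and 393 CPM in KO-labelled libraries. That sum leans on Prkcd, named after its values were seen, which was at 222, 26.9 and 122 CPM across WT 1 to 3. Markers of the oligodendrocyte lineage were also read beside Tcf7l2. Mature markers summed to 14110, 13960 and 13870 CPM across WT 1 to 3 against 19490, 11580 and 8450 CPM across KO 1 to 3. The committed precursor and the precursor lists were, like them, highest in KO 1, at 945 and 511 CPM. No list member is at 0 in every library. The part of thalamic and oligodendrocyte markers in the level of Tcf7l2, and of thalamic markers in that of Lef1, was not tested.

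Nearest to Lef1 were the endothelial transporter gene Slco1a4 (0.18), the neuroblast marker Cd24a (0.21) and the alpha-catenin gene Ctnna1 (0.21), against a median of 0.505. Slco1a4 was at 46.4, 54.4 and 39.9 CPM in WT and 33.2, 36.5 and 35.2 CPM in KO-labelled libraries, below WT in every KO-labelled library. Lef1 is known to be active in brain endothelium. The receptor gene Kdr, also on the endothelial list and named after its values were seen, was at 18.6, 25.0 and 14.97 CPM in WT and 8.84, 10.9 and 12.1 CPM in KO-labelled libraries, highest in WT 2 and without overlap (log2 fold change -0.88; edgeR adjusted p = 0.289, DESeq2 adjusted p = 0.0364). Groups overlapped for 9 of the 12 endothelial markers and did not for 3, beside 16.7% of all genes. The remaining one of the 3, Ly6c1, also named after its values were seen, was higher in KO-labelled libraries (log2 fold change 0.37). It was at 33.0, 41.9 and 43.0 CPM in WT and 50.5, 57.8 and 43.9 CPM in KO-labelled libraries. The list had 7 of 12 positive, a median log2 fold change of 0.09, and summed levels between 455 and 567.5 CPM in WT and between 486 and 581 CPM in KO-labelled libraries. Choroid plexus and ependymal markers, which were lower in all KO-labelled libraries as Lef1 was, differed from it within WT: both lists summed highest in WT 1, where Lef1 was at 9.42 CPM, and Lef1 was highest in WT 2. Their part in the difference of Lef1 was not tested.

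**Figure D5:**
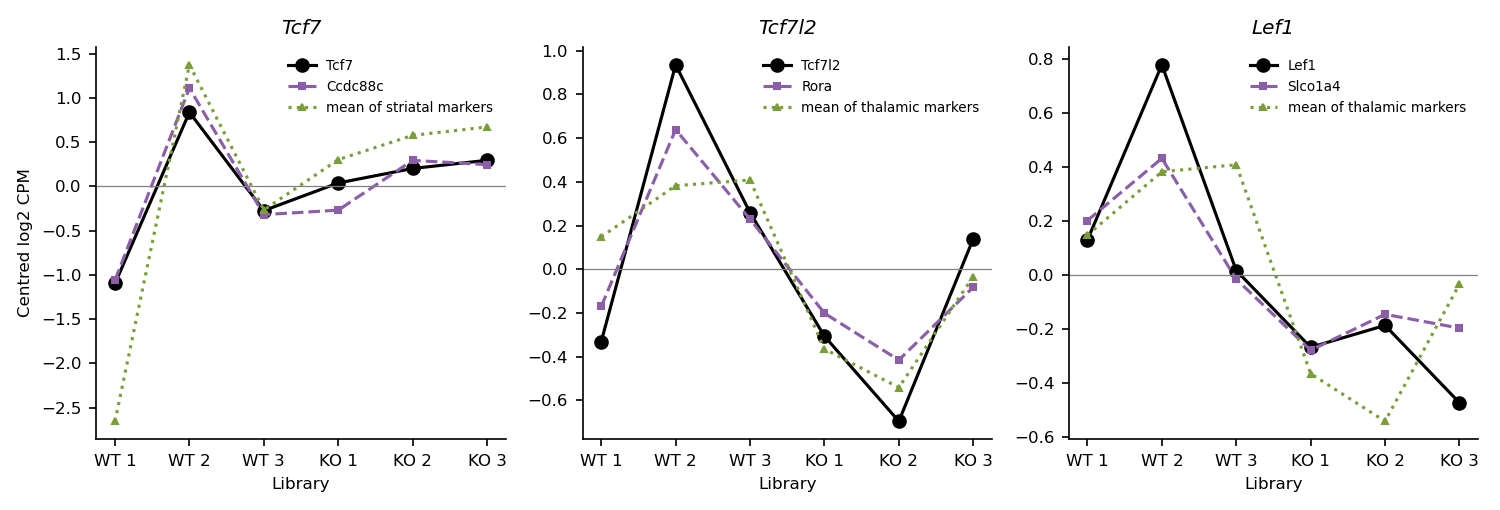
Centred log2 CPM (y axis) in the 6 libraries (x axis) of Tcf7, Tcf7l2 and Lef1 (black), of the gene nearest to each (purple) and of the mean of striatal or thalamic markers (green). Tcf7 and striatal markers are lowest in WT 1 and highest in WT 2, and the mean of the 10 thalamic markers lies higher in every WT library than in any KO-labelled library, which does not hold without Slc17a6 and Lhx9.

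The wider pathway was read from 4 lists with 90 genes, of which 88 were tested. None passed in edgeR or DESeq2. At an unadjusted p under 0.05 in edgeR there were 7, of which 6 were lower and 1 higher, a share of 7.95% beside 9.07% of all genes. Groups did not overlap for 13 genes, or 14.8%, beside 16.7% of all genes. The median log2 fold change of the 88 was -0.03, with 47 negative.

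Among 23 other genes of the destruction complex and Dishevelled, 12 had a positive and 11 a negative log2 fold change, with a median of 0.01. The kinase gene Dapk3 was at 28.9, 33.4 and 31.3 CPM in WT and 40.2, 43.8 and 36.35 CPM in KO-labelled libraries, without overlap (log2 fold change 0.36, edgeR adjusted p = 0.415). Dact1, which encodes a Dishevelled-binding regulator, was at 16.9, 6.90 and 12.01 CPM in WT and 5.60, 6.80 and 7.93 CPM in KO-labelled libraries, with WT 2 among the latter (-0.82, edgeR adjusted p = 0.535). Frat1, which encodes a Gsk3-binding protein, had the third smallest p, with a log2 fold change of 0.26. Under length offsets Dapk3 was at 0.28, Dact1 at -0.82 and Frat1 at 0.24.

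Of 25 nuclear partners and Tle corepressors, 10 were positive and 15 negative, with a median of -0.06. The transcription factor gene Sox9, the histone demethylase gene Kdm6a and the acetyltransferase gene Ep300 had the smallest p, with log2 fold changes of -0.46, -0.38 and -0.35 (edgeR adjusted p = 0.415, 0.416 and 0.522). Sox9 was at 69.2, 53.0 and 49.1 CPM in WT and 43.1, 41.8 and 39.6 CPM in KO-labelled libraries, all below WT. With length offsets Ep300 was at -0.215, Kdm6a at -0.28 and Sox9 at -0.435.

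Of 26 tested feedback and target genes, 13 were positive and 13 negative, with a median of -0.02. Prox1, a homeobox gene that marks dentate granule neurons and a target of the pathway in the hippocampus, was at 31.0, 52.2 and 34.3 CPM in WT and 28.04, 17.3 and 17.5 CPM in KO-labelled libraries. Its groups did not overlap, and like Lef1 and Tcf7l2 it was highest in WT 2 (log2 fold change -0.90, edgeR adjusted p = 0.406; DESeq2 adjusted p = 0.0874). Znrf3, which encodes a ligase that removes Wnt receptors, and Bambi followed with -0.34 and -0.435. The values with length offsets were -0.76 for Prox1, -0.23 for Znrf3 and -0.37 for Bambi. Dentate granule neuron markers, a list that holds Prox1, had 4 of 5 tested members negative and summed to between 179.5 and 304 CPM in WT and between 165 and 245 CPM in KO-labelled libraries. Their part in the level of Prox1 was not tested.

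Of 14 cadherin and catenin junction genes, which share beta-catenin with the Wnt pathway, 6 were positive and 8 negative, with a median of -0.03. Cdh11, Ctnna1 and Ctnnd1 had the smallest p, with log2 fold changes of -0.29, -0.26 and -0.21. Length offsets put them at -0.23, -0.26 and -0.13. None of the 14 had an unadjusted p under 0.05 in edgeR.

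The deposited table splits the 10 genes over 87 transcripts, of which 67 had 0 counts in at least 1 library, among them all 50 of Tcf7l2. Groups did not overlap for 9 of the 87, beside 10.1% of all 61481 transcripts, a share near the background. One of the 3 Gsk3b transcripts held 45.6%, 40.4% and 40.1% of the gene's counts across WT against 23.0%, 9.62% and 28.6% across KO-labelled libraries, lower in each of them. For Dvl3, 1 of 3 transcripts held 152, 87.3 and 67.2 counts across WT against 21.0, 13.35 and 37.0 across KO-labelled libraries. An Apc transcript was instead higher, with 250, 155 and 0 counts across WT against 677, 458 and 457 across KO-labelled libraries. So was a Tcf7l2 transcript, with 0 counts in each WT library against 16.2, 2.57 and 23.2. The transcripts were singled out after their values were seen. Such values are estimates of how shared reads divide. For Apc the share of 1 transcript ran from 0.13% in WT 1 to 71.5% in WT 2, and for Tcf7 from 8.12% in WT 3 to 90.6% in KO 3, so the split swings widely within a group.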

How the data were processed

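The authors deposited 1 table, which per the file headers holds estimated counts and FPKM of 61481 transcripts for every library. The deposited FPKM are scaled to transcript length and library total. The submitters' processing notes list mm10 as the genome build and limma 3.40.6 as a tool, with the aligner, quantifier and strand setting not given in the sources used here. Counts were added up by NCBI gene number, named for 18489 of 18614 genes with RefSeq GRCm38.p6, and rounded; the 125 others held 0.104% to 0.140% of counts. A floor of 3 counts is 0.17 to 0.176 CPM, for counting error only.

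edgeR 4.0.16 in R 4.3.3 was run with TMM, filterByExpr (minimum count 10), a robust quasi-likelihood F test with group as the only term, and Benjamini-Hochberg adjustment over all genes tested; DESeq2 1.42.0 and limma-voom (limma 3.58.1) were alternatives, as were other scalings and filters, single libraries left out, KO 1 alone and limma on log2(FPKM + 0.1). Standard errors were derived from the fold change and F. Log2 CPM used a prior count of 2, and length offsets a loess of span 0.3. The procedure was tested on simulated data. Replicates differed beyond sampling noise.

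The 10 genes, 4 pathway lists and 17 marker lists were chosen with earlier results of these data known. The rule named all 10, the 3 genes with the smallest p in each pathway list and the 3 genes most like each of the 3 widest-ranging members; others are marked as named after their values were seen. The identity between proteins was planned and not analysed here.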

Additional observations from a re-analysis of the deposited data

How the results depend on the processing

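None of the 10 genes and none of the 88 pathway genes passed in any of 16 alternatives, of which 15 were planned; the lowest adjusted p of a member was 0.379 (Lef1, DESeq2). Over all genes edgeR called 0, with 1372 at an unadjusted p under 0.05, while DESeq2 called 311, and with single libraries left out edgeR called between 0 and 137, the last without WT 3 and all lower. Of 160 member values, 6 turned in sign, in 3 genes near 0. With single libraries left out, Axin2 ranged from -0.222 to 0.075, Tcf7 from -0.205 to 0.813 and Tcf7l1 from -0.119 to 0.078, and Axin2 was at 0.073 with KO 1 alone. These fits have fewer samples. Without WT 2 the values of Lef1 and Tcf7l2 were -0.395 and -0.253.

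Same-numbered libraries did not deviate together (correlations of -0.162, -0.067 and -0.037), so the number is not read as a pairing. With the replicate block edgeR called 0 genes, and Lef1 was at -0.63 and Tcf7 at 0.35. The standard error of the log2 fold change was 0.46 for Tcf7 and 0.15 for Tcf7l1, at counts of a like size.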
